A study of Mus musculus with 24 samples.

Results

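The family of miR-10, miR-99/100 and miR-125 was read out here as 7 mature miRNAs, the 5p arms of miR-10a, miR-10b, miR-99a, miR-99b, miR-100, miR-125a and miR-125b. They were taken by their miRBase accessions from a table of 1907 mature miRNA accessions at 2045 loci, in which the 7 occupy 8 loci because miR-125b-5p is encoded by 2 hairpins whose reads were added up. The accessions are MIMAT0000648 (miR-10a-5p), MIMAT0000208 (miR-10b-5p), MIMAT0000131 (miR-99a-5p), MIMAT0000132 (miR-99b-5p), MIMAT0000655 (miR-100-5p), MIMAT0000135 (miR-125a-5p) and MIMAT0000136 (miR-125b-5p). All 7 passed the filter on low counts. The rule that picks them uses accessions and no measured value.

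Small RNA of subcutaneous fat from chow-fed female mice was sequenced in 24 libraries, 6 in each of 4 groups: sedentary wild type, trained wild type, sedentary kinase dead and trained kinase dead. The trained mice ran on a motorised treadmill at 16 m/min for 1 h on 5 days a week over 6.5 weeks. The protocol, worded alike for all samples, also gives free access to a running wheel throughout. Whether sedentary mice had the wheel too is not stated. Which kinase is inactive, in which cells, and whether each library is a separate animal are details the labels do not state. P-values therefore describe how these libraries vary, which may be technical. The stated question is what training does to the miRNAs of this tissue.

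A mature miRNA guides a silencing complex to messenger RNAs, mainly by pairing of its seed, bases 2 to 8, with the target. The miR-10 genes lie within the Hox clusters, whose genes set position along the body axis. The miR-99, let-7 and miR-125 genes form clusters of 3 hairpins that are thought to be cut from common transcripts. miR-100 and miR-99 are known for targeting mTOR, the kinase that couples nutrients to growth, and miR-125 is the vertebrate relative of worm lin-4. In adipocytes miR-125b-5p has been studied as a restraint on mitochondria and on the beige, heat-producing state.

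The mature sequences are shown because the family is defined by them, with the seed in capitals. They are RefSeq sequences on build GRCm38.p6, and all 8 loci matched the table's coordinates.
miR-10a-5p: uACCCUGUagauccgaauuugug
miR-10b-5p: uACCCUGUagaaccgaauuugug
miR-99a-5p: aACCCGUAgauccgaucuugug
miR-100-5p: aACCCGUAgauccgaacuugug
miR-99b-5p: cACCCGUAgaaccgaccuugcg
miR-125a-5p: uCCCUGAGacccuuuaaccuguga
miR-125b-5p: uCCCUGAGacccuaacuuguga

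The 7 sequences carry 3 seeds. The seed ACCCUGU belongs to miR-10a-5p and miR-10b-5p alone among 1679 mature mouse miRNAs of the RefSeq table, and ACCCGUA to miR-99a-5p, miR-99b-5p and miR-100-5p alone. CCCUGAG is carried by 5 miRNAs, the 2 members and miR-351-5p, miR-6367 and miR-6394. Counted from the 5′ end of the first-named sequence, miR-10a-5p and miR-10b-5p differ by U12A, and miR-99a-5p and miR-100-5p differ by U16A. From miR-99a-5p to miR-99b-5p the differences are A1C, U11A, U16C and U21C. The miR-125 pair is identical over its first 13 bases. When miR-10a-5p is read from its second base, it matches miR-100-5p at 19 of 22 positions, so the seeds of the miR-10 and miR-99/100 groups are offset versions of closely similar sequences.

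All 8 loci lie on the plus strand of build GRCm38 (mm10), and gene contexts are from GENCODE M21. miR-10a-5p is at chr11:96317186-96317208, outside any annotated host gene and with its hairpin 993 bases from Hoxb4. miR-10b-5p is at chr2:74726074-74726096, in introns of Hoxd3 and Hoxd4. miR-99a-5p at chr16:77598940-77598961 and the Mir125b-2 copy of miR-125b-5p at chr16:77646279-77646300 lie in introns of the long noncoding Mir99ahg. The hairpin of let-7c-1 sits between them, 656 bases from that of miR-99a. miR-100-5p at chr9:41531437-41531458 and the Mir125b-1 copy at chr9:41581940-41581961 lie in introns of 3110039I08Rik, with let-7a-2 between them. The shortest cluster holds miR-99b-5p at chr17:17830194-17830215, in an intron of Spaca6, and miR-125a-5p at chr17:17830817-17830840, in sequence that is exonic in a Spaca6 transcript. Their hairpins are 554 bases apart and that of let-7e lies between them.

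Library totals were 1601209 to 23593237 reads, and the members had between 4598 and 799122 reads in a library, so counting error was small beside the spread between libraries. Of markers known from adipocytes, though not exclusive to them, miR-148a-3p averaged 33551, miR-378a-3p 13372 and miR-103-3p 10774 CPM. miR-193b-3p and miR-365-3p, also taken as adipocyte markers, were not among the 25 highest miRNAs. miRNAs taken as markers of other cells were also present, some of them at higher levels. miR-143-3p, taken for smooth muscle, averaged 135825, miR-126a-3p, for endothelium, 49476 and miR-200a-3p, for epithelium, 9922 CPM. Which cells made them, adipocytes included, was not tested. A set of 7 libraries, 1 of sedentary wild type and 2 of each other group, stood apart by miR-150-5p, a lymphocyte miRNA, at 3631 CPM or more against at most 1015 CPM in the other 17. All 4 miRNAs taken as lymphocyte markers, miR-150-5p, miR-142a-5p, miR-142a-3p and miR-155-5p, were detected. Their summed level was 12924 to 20964 CPM in the 7 libraries, with miR-150-5p itself at most 6740 CPM, and 1363 to 3168 CPM in the 17. Whether lymphocytes alone made these 4 was not tested. By group the sum spanned 1589 to 20964 CPM in sedentary and 1464 to 19932 CPM in trained wild type, and 1731 to 19716 CPM in sedentary and 1363 to 19929 CPM in trained kinase dead. Results are therefore also given without those libraries.

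The family made up 8.57% ± 0.845 (SD, n = 24) of all counted reads. Without the lesser locus of each pair overlapping on opposite strands, its share was 9.16% ± 0.901. CPM here is the count relative to library size, scaled with TMM factors, and because a read spans a whole mature miRNA, levels of these miRNAs, of 22 to 24 bases, were compared without dividing by length. miR-99a-5p was highest at 27524 ± 6727 CPM (SD, n = 24), ninth among the 582 miRNAs tested. That rank counts miR-126b-5p and miR-126a-3p, both at 49476 CPM, separately. Within the family miR-99a-5p was followed by miR-10b-5p at 22556 ± 3434, miR-10a-5p at 15522 ± 2185, miR-125b-5p at 7923 ± 1428, miR-100-5p at 7170 ± 1274, miR-99b-5p at 2977 ± 493 and miR-125a-5p at 2578 ± 409 CPM. Some steps of that order held in every library: miR-10b-5p lay above miR-10a-5p, miR-10a-5p above miR-125b-5p, and miR-100-5p above miR-99b-5p in 24 of 24. Other neighbours changed places between libraries. miR-99a-5p exceeded miR-10b-5p in 17 of 24, miR-125b-5p exceeded miR-100-5p in 19 of 24 and miR-99b-5p exceeded miR-125a-5p in 18 of 24.

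**Figure D1:**
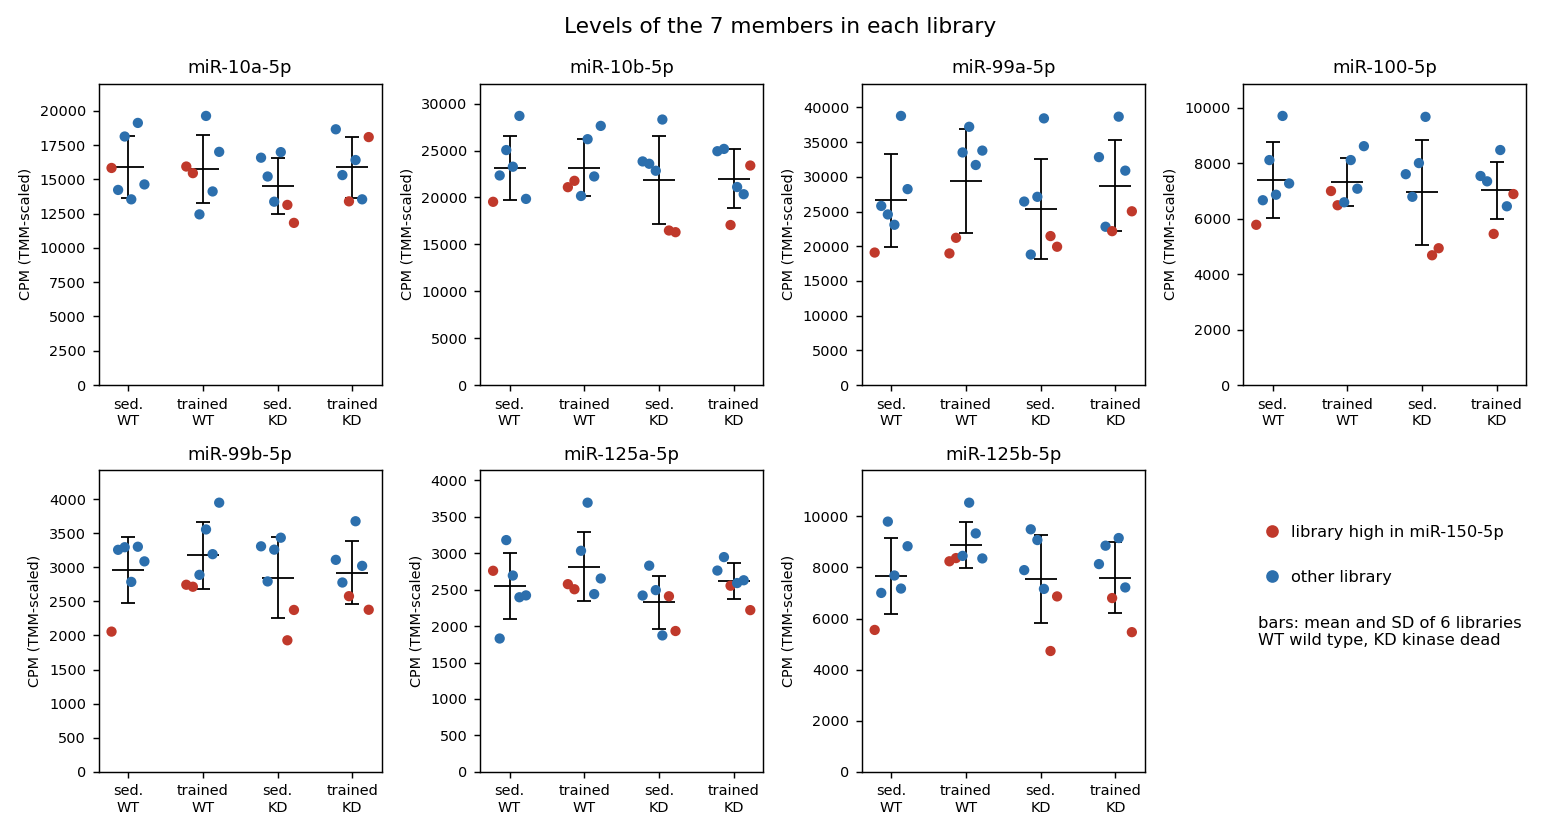
Level of each member in CPM (linear axis from 0) in each of the 24 libraries by group, with bars for the mean and SD of 6 libraries and red points for the 7 libraries high in miR-150-5p. The 4 groups overlap for every member. Group ranges lay apart for 1 of the 582 tested miRNAs for training in wild type and for 0 in kinase dead. For genotype they lay apart for 0 in sedentary and 1 in trained mice, so overlap is not particular to the members. For miR-99b-5p the red points lie at 1929 to 2743 CPM and the others at 2776 to 3947 CPM on this TMM scale, but they overlap as percent of all reads. Other tested miRNAs were not counted for this split.

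By seed, the miR-10 pair and the miR-99/100 trio took similar parts of the family, 44.3% ± 3.52 and 43.4% ± 4.06 of its reads, and the miR-125 pair 12.3% ± 1.8 (SD, n = 24). Among single members miR-99a-5p held 31.6% ± 4.19 of the family's reads and miR-10b-5p 26.2% ± 2.13. The share of miR-100-5p varied least among libraries, with a coefficient of variation of 6.91%, and that of miR-125a-5p most, with 17.6%. Shares moved little with group: that of miR-99a-5p was 30.6% ± 3.61 in sedentary and 32.1% ± 5.20 in trained wild type, and 30.9% ± 4.19 in sedentary and 32.9% ± 4.37 in trained kinase dead (SD, n = 6 each). The family as a whole was 8.47% ± 0.938 of all reads in sedentary wild type, 8.99% ± 1.04 in trained wild type, 8.06% ± 0.544 in sedentary kinase dead and 8.77% ± 0.660 in trained kinase dead (SD, n = 6 each). The trained and sedentary ranges overlapped in both genotypes. The difference of means was below either SD in wild type and above either SD in kinase dead, and it was not tested.

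**Figure D2:**
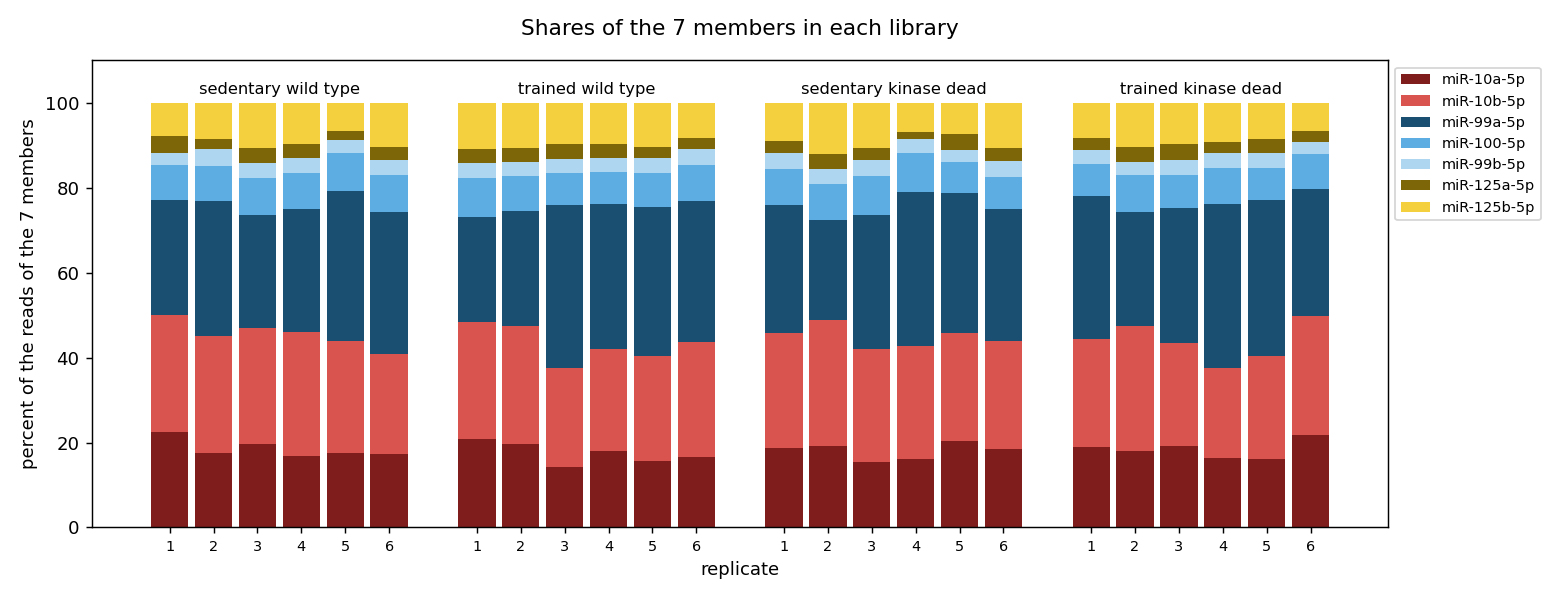
Percent of the reads of the 7 members taken by each member, 1 stacked bar per library, in the 4 groups. miR-99a-5p holds between 23.7% and 38.6% and miR-10b-5p between 21.1% and 29.7% in all 24 libraries.

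Read counts of cluster mates were compared as ratios, which also carry any difference between miRNAs in ligation, and this was not tested. On chromosome 16, miR-99a-5p stood at 1.26 ± 0.273 times let-7c-5p, and let-7c-5p, which other loci can also supply, at 2.85 ± 0.641 times miR-125b-5p, which has a second locus (SD, n = 24). On chromosome 17, miR-99b-5p stood at 2.33 ± 0.449 times let-7e-5p, and miR-125a-5p at 0.888 ± 0.194 times miR-99b-5p, with libraries on both sides of 1 (0.545 to 1.34). Among paralogs, miR-10b-5p was 1.46 ± 0.156 times miR-10a-5p, miR-99a-5p was 9.23 ± 1.5 times miR-99b-5p and 3.84 ± 0.651 times miR-100-5p, and miR-125b-5p was 3.10 ± 0.519 times miR-125a-5p. miR-196a-5p, with 1 of its hairpins on the chromosome of miR-10a, averaged 803 CPM, well below miR-10a-5p.

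The 5p arm dominated every hairpin. The 3p arm held 0.0198% of the arm reads for miR-100, 0.153% for miR-10b, 0.176% for miR-99a, 0.290% for miR-10a and 0.510% for miR-125a. The 2 exceptions on the scale of percents were miR-99b, with 3.40% on the 3p arm, and miR-125b, with 4.50%. For miR-125b the 3p arms matter because they tell its 2 hairpins apart, which the 5p sequence cannot. They differ at 5 of 22 positions.
miR-125b-1-3p: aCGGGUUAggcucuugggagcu
miR-125b-2-3p: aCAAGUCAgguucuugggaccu

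Capitals mark bases 2 to 8, which are not the same in both. Of the 3p reads, 78.8% ± 3.41 (SD, n = 24) were miR-125b-2-3p, the arm of the chromosome 16 hairpin, and the share lay between 71.5% and 84.1%, above 50% in 24 of 24 libraries. The level of miR-125b-2-3p was 288 ± 51.0 CPM and that of miR-125b-1-3p 77.6 ± 18.3 CPM. The 5p reads were counted almost evenly, with 49.0% ± 1.08 at the chromosome 16 locus and a range of 46.8% to 50.8%. How the counting placed a read that matches both loci is not stated by the labels or notes, so the even 5p split does not measure the output of either hairpin. The 3p split does not measure it either, since the 3p arms may differ in stability, which was not tested.

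**Figure D3:**
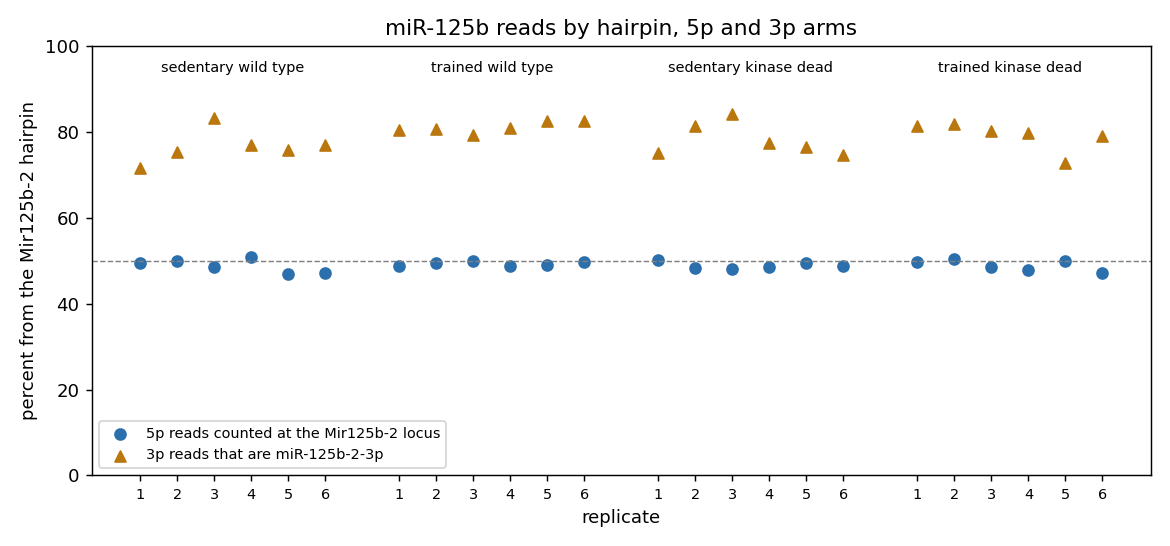
Percent of miR-125b reads assigned to the Mir125b-2 hairpin on chromosome 16 in each library, circles for the 5p arm and triangles for the 3p arms, with a dashed line at 50%. All triangles lie at 71.5% or above and all circles between 46.8% and 50.8%.

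Training in wild type mice was compared first. The medians of miR-99a-5p and miR-125b-5p were higher in the trained group, but no member passed the test. miR-125b-5p spanned 5553 to 9795 CPM with a median of 7429 in sedentary libraries, and 8241 to 10536 CPM with a median of 8410 in trained ones. Every trained library (6 of 6) exceeded that sedentary median and 1 exceeded the sedentary maximum. The groups thus overlapped, as they did for all but 1 of the 582 tested miRNAs. The log2 fold change of miR-125b-5p, trained minus sedentary, was 0.21 (SE 0.16, 95% interval -0.12 to 0.54, edgeR quasi-likelihood adjusted p = 0.860). For miR-99a-5p, sedentary libraries spanned 19090 to 38778 CPM with a median of 25196, and trained ones 18964 to 37212 CPM with a median of 32613. That is the widest spread in the family, and 4 of 6 trained libraries lay above the sedentary median. Its log2 fold change was 0.14 (SE 0.20, adjusted p = 0.968), and that of miR-125a-5p was 0.15 (SE 0.14, adjusted p = 0.900).

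miR-99b-5p had a log2 fold change of 0.099 (SE 0.15) in that comparison, and miR-10b-5p, miR-10a-5p and miR-100-5p lay at 0.0037, -0.013 and -0.017. With edgeR, 0 of 7 members passed an adjusted p of 0.05, beside 0 of all 582 tested miRNAs (0%). At an unadjusted p under 0.05 the members again numbered 0, beside 31 of 582 (5.33%) with edgeR and 38 of 582 with DESeq2. The members' median log2 fold change was 0.099, with 5 of 7 above 0, and the median over all 582 was 0.012. Without the 7 libraries high in miR-150-5p the values were 0.32 (SE 0.19) for miR-99a-5p, 0.28 (SE 0.17) for miR-125a-5p and 0.22 (SE 0.13) for miR-125b-5p, with 7 of 7 above 0 and a smallest adjusted p of 0.547. Leaving those libraries out raised the values of miR-99a-5p and miR-125a-5p by over 1.5 times, and neither passed the test.

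Training in kinase dead mice gave 0 of 7 members past the threshold as well, with all 7 above 0 and a median of 0.037 beside 0.012 over all 582. miR-99a-5p spanned 18803 to 38425 CPM with a median of 23952 in sedentary libraries and 22174 to 38672 CPM with a median of 27964 in trained ones. It had the largest log2 fold change, 0.18 (SE 0.20, edgeR adjusted p = 0.994), and the groups overlapped over most of their ranges. The ranges of these groups lay apart for 0 of the 582 tested miRNAs. miR-125a-5p spanned 1873 to 2830 CPM and then 2220 to 2948 CPM, with 5 of 6 trained libraries above the sedentary median of 2415 CPM and a log2 fold change of 0.17 (SE 0.14). miR-10a-5p followed at 0.13 (SE 0.13), miR-99b-5p at 0.037, miR-100-5p at 0.016, miR-125b-5p at 0.013 and miR-10b-5p at 0.0073. Of all tested miRNAs 0 (0%) passed the adjusted threshold, and 14 (2.41%) were under an unadjusted p of 0.05 with edgeR and 15 with DESeq2. Without the 7 libraries, 3 of 7 members were above 0 and 4 changed sign. The common direction was also lost with all libraries kept, with no filter on low counts or with each locus as its own feature. Leaving out 1 library moved the miR-99a-5p value to between 0.011 (without trained replicate 4) and 0.34 (without sedentary replicate 4), and that of miR-10a-5p to as low as 0.00038 (without trained replicate 6).

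Averaged over both genotypes, the training effect was estimated most closely, with 95% intervals reaching a median of 0.223 to either side on the log2 scale. miR-99a-5p had a log2 fold change of 0.16 (95% interval -0.13 to 0.46), and miR-125a-5p 0.16 (95% interval -0.041 to 0.36, edgeR adjusted p = 0.940), the smallest p of the family. miR-125b-5p lay at 0.11 (95% interval -0.12 to 0.34). The other values were 0.068 for miR-99b-5p, 0.059 for miR-10a-5p, 0.0055 for miR-10b-5p and -0.00047 for miR-100-5p, the last 2 with intervals of -0.20 to 0.21 and -0.23 to 0.23. No member passed (0 of 7), beside 0% of the 582 at the adjusted threshold and 36 of 582 (6.19%) at an unadjusted p under 0.05, or 38 with DESeq2.

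The difference between the 2 training effects, kinase dead minus wild type, was largest for miR-125b-5p at -0.20 (SE 0.22, 95% interval -0.66 to 0.26, edgeR adjusted p = 0.993). It was 0.14 (SE 0.18) for miR-10a-5p and between -0.062 and 0.036 for the other 5. No member passed (0 of 7, with 0 under an unadjusted p of 0.05), beside 0% of all tested miRNAs at the adjusted threshold and 13 of 582 (2.23%) at the unadjusted one, or 10 with DESeq2. The 95% intervals of the difference reached a median of 0.447 to either side. Leaving out sedentary kinase dead replicate 5 moved the miR-125b-5p value to -0.36. Without the 7 libraries high in miR-150-5p all 7 values lay below 0, 5 of them with a changed sign, and that of miR-125b-5p was -0.27 (SE 0.19).

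**Figure D4:**
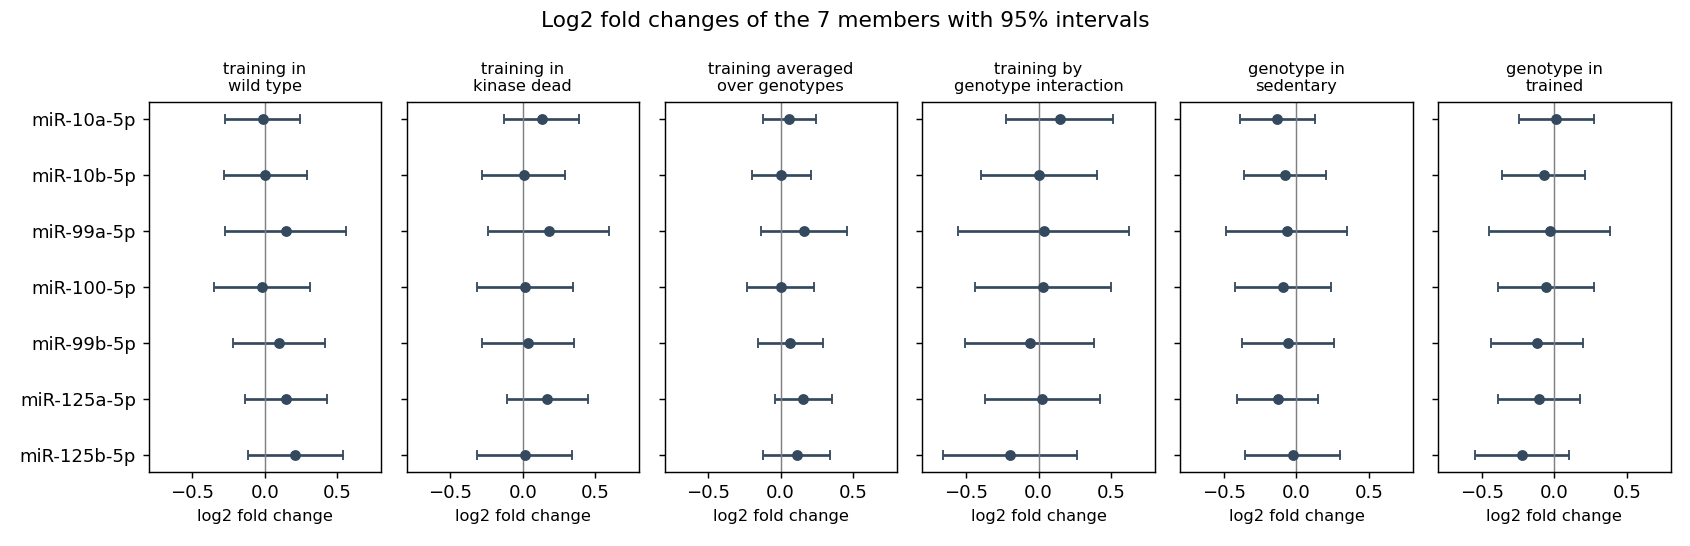
Log2 fold changes of the 7 members with 95% intervals in the 6 comparisons, from the edgeR fit. Differences are trained minus sedentary, kinase dead minus wild type, or the kinase dead minus the wild type training effect. Every interval includes 0.

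Genotype was compared within each training status. In sedentary mice all 7 members lay below 0, kinase dead minus wild type, with a median of -0.079 beside -0.024 over all 582. miR-10a-5p, at 13541 to 19115 CPM in wild type and 11825 to 16985 CPM in kinase dead, had the largest value, -0.13 (SE 0.13, edgeR adjusted p = 0.991), and 3 of 6 kinase dead libraries lay below the wild type minimum. miR-125a-5p was also at -0.13 (SE 0.14). None passed (0 of 7, also 0 at an unadjusted p under 0.05), beside 0% at the adjusted threshold and 7 of 582 (1.2%) at the unadjusted one, or 6 with DESeq2. Without the 7 libraries high in miR-150-5p, 4 of 7 members changed sign and the median was 0.036.

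In trained mice the widest gap was that of miR-125b-5p. Trained wild type libraries spanned 8241 to 10536 CPM and trained kinase dead ones 5467 to 9151 CPM with a median of 7674, and 4 of 6 kinase dead libraries lay below the wild type minimum. The means were 8880 ± 903 and 7603 ± 1385 CPM (SD, n = 6 each), and the log2 fold change was -0.22 (SE 0.16, 95% interval -0.55 to 0.10, edgeR adjusted p = 0.996). When each hairpin locus was its own feature the values were -0.21 at Mir125b-2 and -0.20 at Mir125b-1. Both loci encode the same miR-125b-5p sequence, and its reads were counted almost evenly between them. The values per locus therefore repeat the summed one and do not compare the hairpins. Other members ranged from -0.12 for miR-99b-5p to 0.012 for miR-10a-5p. No member passed (0 of 7, with 0 at an unadjusted p under 0.05), beside 0% of the 582 at the adjusted threshold and 4 of 582 (0.687%) at the unadjusted one, or 9 with DESeq2. Without the 7 libraries the miR-125b-5p value was -0.20 (SE 0.14), that of miR-99a-5p moved from -0.033 to -0.18, and all 7 members lay below 0. The training and genotype comparisons share groups, so the trained wild type libraries enter both miR-125b-5p differences.

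Partners in the same clusters were tested in the same fit, and none passed in any of the 6 comparisons. In trained against sedentary wild type, let-7c-5p had a log2 fold change of -0.011 (SE 0.14), let-7a-5p -0.075 (SE 0.11) and let-7e-5p -0.19 (SE 0.16, edgeR adjusted p = 0.860), beside values of 0.14 for miR-99a-5p, -0.017 for miR-100-5p and 0.099 for miR-99b-5p, their respective neighbours. The 3p arms of miR-125b lay at 0.078 for miR-125b-2-3p and -0.30 (SE 0.19) for miR-125b-1-3p. The smallest unadjusted p among the other arms was that of miR-10a-3p in kinase dead, which averaged 36.7 ± 5.4 CPM without and 49.2 ± 8.75 CPM with training (SD, n = 6 each). Its log2 fold change was 0.42 (SE 0.18, edgeR adjusted p = 0.994, and 0.031 before adjustment).

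In the 17 libraries not high in miR-150-5p, pairs that share a seed were correlated, and so were some pairs of different seed. There no correlation was detected for members of the same cluster with different seeds, though miR-125b-5p also has a second locus. Pairs with the let-7 cluster mates were not computed. Over the 17 libraries not high in miR-150-5p, Pearson correlations of log2 CPM were computed for all 21 pairs, with permutation p-values adjusted over the 21. The groups were pooled without removing group means, and permutation was across groups, so differences between groups enter r and its p. The miR-10 pair had r = 0.74 (Spearman's rho 0.76, adjusted permutation p = 0.00588 and 0.0063). The miR-125 pair had r = 0.72 (rho 0.65, adjusted permutation p = 0.00588 and 0.0192). Within the miR-99/100 seed, r was 0.67 for miR-100-5p with miR-99b-5p (rho 0.78), 0.65 for miR-99a-5p with miR-99b-5p (rho 0.66) and 0.58 for miR-99a-5p with miR-100-5p (rho 0.58), with adjusted permutation p of 0.0121, 0.0167 and 0.0439 for r and 0.0063, 0.0192 and 0.0444 for rho. These 5 are all the pairs that share a seed. Of the 16 other pairs, 2 passed for r, miR-100-5p with miR-10b-5p (r = 0.74, rho 0.72) and with miR-10a-5p (r = 0.71, rho 0.74), with adjusted permutation p of 0.00588 and 0.00803 for r and 0.00877 and 0.00756 for rho. miR-10a-5p with miR-99b-5p passed for rho alone (r = 0.54, rho 0.59, adjusted permutation p = 0.0701 and 0.0444).

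Cluster mates of different seed gave r of -0.16 for miR-99a-5p with miR-125b-5p (rho -0.16), -0.032 for miR-100-5p with miR-125b-5p (rho 0.069) and -0.14 for miR-99b-5p with miR-125a-5p (rho -0.27), with adjusted permutation p of 0.777, 0.949 and 0.777. The last pair comes from hairpins 554 bases apart. Leaving out the 2 libraries farthest from the median of the first-named member, r was 0.67 for the miR-10 pair, 0.53 for the miR-125 pair and 0.49 to 0.78 within the miR-99/100 seed. It became 0.53 for miR-100-5p with miR-125b-5p, so the near-zero value of that pair rested on those 2 libraries. In the 7 libraries high in miR-150-5p, described without a test, r was 0.94 for the miR-10 pair and 0.64 for miR-100-5p with miR-99b-5p. The miR-125 pair had r = 0.06, miR-99a-5p with miR-99b-5p 0.0049 and miR-99a-5p with miR-100-5p 0.14. Pairs of different seed ran there from -0.35 (miR-99a-5p with miR-125b-5p) to 0.94 (miR-10b-5p with miR-100-5p). Shared seed thus did not set the correlated pairs apart in these libraries. The points share library, depth and scaling, and whether the correlation of same-seed members comes from their near-identical sequences in ligation or mapping was not tested.

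**Figure D5:**
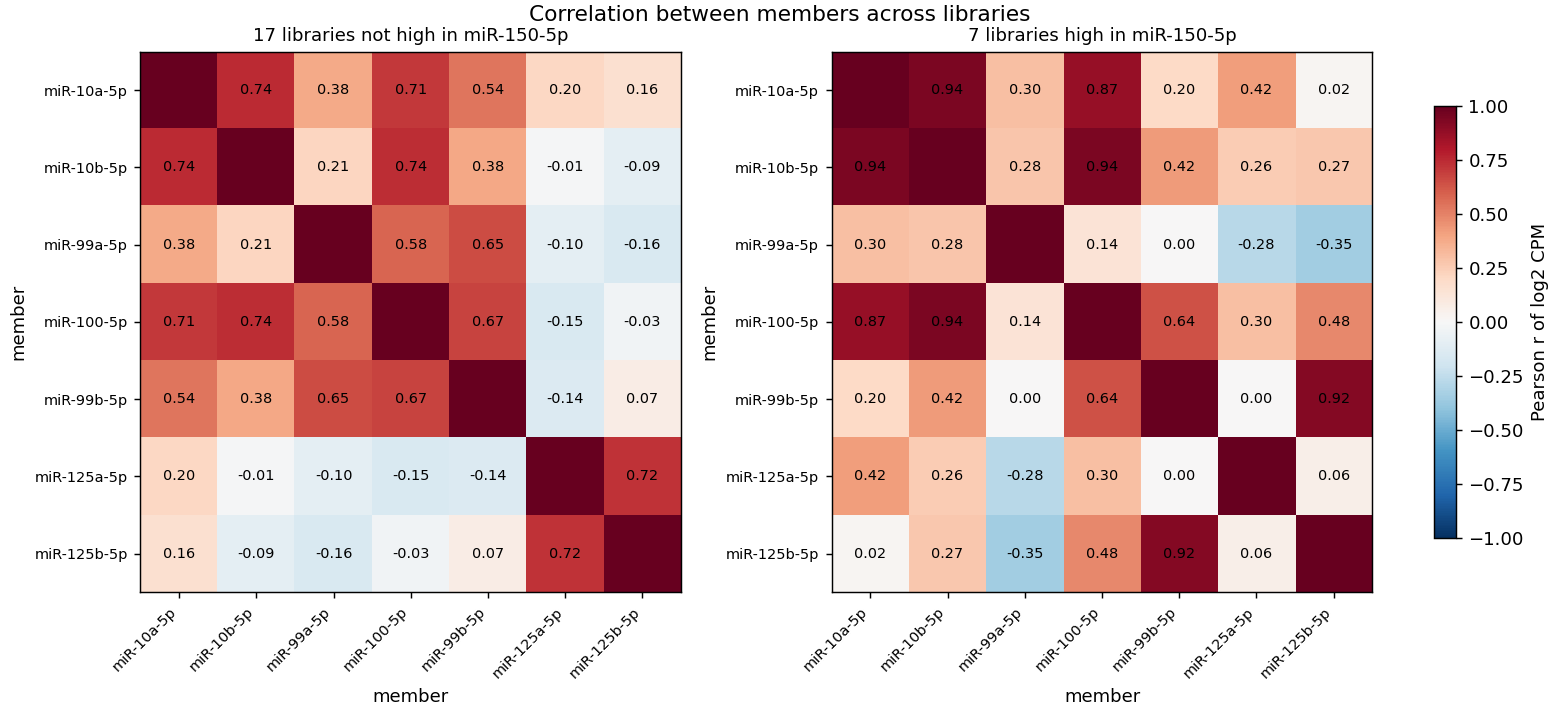
Pearson r of log2 CPM for each pair of members, over the 17 libraries not high in miR-150-5p (left) and over the 7 high in it (right), on a colour scale from -1 to 1. On the left the miR-125 pair correlates at 0.72 and the other 5 members with each other at 0.21 to 0.74, and values between these sets run from -0.16 to 0.20.

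The libraries high in miR-150-5p were lower in the family, 7.96% ± 0.361 (SD) of all reads against 8.82% ± 0.866 in the other 17, described without a test because the libraries were separated by their values. The direction for some members turned with the scale, so both are given. On the TMM scale miR-99a-5p averaged 21124 CPM in the 7 and 30160 CPM in the 17, miR-10b-5p 19381 and 23864, and miR-100-5p 5886 and 7698 CPM. As percent of all reads miR-99a-5p was 2.33% and 2.90%, miR-10b-5p 2.12% and 2.29%, and miR-100-5p 0.643% and 0.738%, lower in the 7 on both scales. On the TMM scale miR-99b-5p had at most 2743 CPM among the 7 and at least 2776 CPM among the 17. As percent of all reads its ranges overlapped, at 0.230% to 0.307% and 0.260% to 0.379%. How many other tested miRNAs lay apart in this split was not counted, so the gap is not read as particular to miR-99b-5p. miR-10a-5p was lower in the 7 on the TMM scale, at 14807 against 15816 CPM, but higher as percent of reads, at 1.62% against 1.51%. miR-125a-5p likewise was at 2423 against 2641 CPM and at 0.268% against 0.255% of reads. Summed with miR-125b-5p, it was lower in the 7 on both scales, at 8998 against 11119 CPM and 0.987% against 1.07% of reads. The ratio of miR-10b-5p to miR-10a-5p does not depend on that scaling and was 1.31 ± 0.0647 in the 7 and 1.52 ± 0.140 in the 17. Fewer cells of a type and less miRNA per cell cannot be told apart in whole tissue.

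The miRNAs most like each member in pattern, by Pearson r of log2 CPM over the 24 libraries among 191 other miRNAs with a mean of at least 100 CPM, are given as a description. They were miR-148b-3p for miR-10a-5p (r = 0.75), miR-143-3p for miR-10b-5p (0.85), miR-210-3p for miR-99a-5p (0.74), miR-708-3p for miR-100-5p (0.84) and miR-143-5p for miR-99b-5p (0.88). For the miR-125 pair they were miR-328-3p for miR-125a-5p (0.65) and miR-103-3p for miR-125b-5p (0.85). Over the 17 libraries alone all 7 values were lower, 0.71, 0.60, 0.56, 0.67, 0.61, 0.62 and 0.65 in the same order. Each member had a different nearest miRNA, members of 1 seed included, but the first 3 places were partly shared. miR-708-3p was among them for miR-100-5p (0.84) and miR-99b-5p (0.87), and miR-148a-3p for miR-10a-5p (0.68) and miR-10b-5p (0.84). miR-30a-5p was among them for miR-10b-5p (0.83) and miR-100-5p (0.81). The members themselves were not candidates.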

How the data were processed

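Per the submitters' processing notes, reads were handled with CASAVA 1.8.2, Trim Galore, Bowtie2 and featureCounts on build mm10. Settings for strand and multiple mapping are not stated there. The values are the raw counts per mature miRNA locus that the authors deposited. Loci of 1 accession were summed over the whole table. Names and sequences came from RefSeq by exact coordinates and contexts from GENCODE M21. Of 40 pairs of loci overlapping on opposite strands, 0 involved a member. The lesser loci of these pairs held 6.48% of all reads, which enter the library totals. Whether reads there were counted on both strands was not tested. The main test was edgeR 4.0.16 quasi-likelihood (R 4.3.3) with TMM factors in 1 fit of 4 groups. filterByExpr kept 582 features, and the 1325 others held 0.015% of reads. P-values were Benjamini-Hochberg adjusted over the 582 at a threshold of 0.05. DESeq2 1.42.0 was an alternative, with other scalings, no filter, separate loci, only the groups compared, and libraries left out. The fit was tested on simulated data. Correlation p-values used 100000 two-sided permutations, free across groups. Libraries high in miR-150-5p were those above the widest gap in its log2 CPM. All 7 members, the other arms, cluster partners and nearest miRNAs were named by rule. Members and lists were chosen with earlier results of these data known. No alternative was added later.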

Additional observations from a re-analysis of the deposited data

How the results depend on the processing

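No member passed the threshold in any of 6 comparisons under any alternative run. The smallest adjusted p of a member over all 994 fitted values was 0.463 and the smallest unadjusted p 0.0558. Of 280 log2 fold changes under alternatives that keep all replicates or drop the 7 libraries high in miR-150-5p, 43 had the other sign than the value reported, all for values of at most 0.145 in size, and the cause was not tested. The family's share of reads was 9.16% without the lesser of each opposite-strand pair of loci and 8.82% without the 7 libraries. miR-125b-5p kept its sign for training in wild type, for the interaction and for genotype in trained mice under every alternative run. No paired analysis was possible because replicate numbers only name libraries. Depth limits the 3p arm of miR-100, which had as few as 1 read in a library.

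With DESeq2, the sign turned, with values for training in wild type -0.012 for miR-10b-5p, and for training averaged over genotypes -0.0017 for miR-10b-5p, and for genotype in trained 0.0026 for miR-99a-5p. With median-ratio size factors, the sign turned, with values for training in wild type -0.012 for miR-10b-5p, and for training averaged over genotypes -0.0017 for miR-10b-5p, and for genotype in trained 0.0026 for miR-99a-5p. With library totals alone, the sign turned, with values for training in wild type 0.0013 for miR-100-5p, and for training averaged over genotypes 0.030 for miR-100-5p. With no filter on low counts, the sign turned, with values for training in wild type 0.037 for miR-10a-5p and 0.032 for miR-100-5p, and for training in kinase dead -0.012 for miR-10b-5p and -0.00094 for miR-125b-5p, and for training averaged over genotypes 0.019 for miR-100-5p, and for training by genotype interaction -0.069 for miR-10b-5p, -0.011 for miR-99a-5p, -0.025 for miR-100-5p and -0.052 for miR-125a-5p, and for genotype in sedentary 0.014 for miR-99b-5p and 0.049 for miR-125b-5p. With each locus as its own feature, the sign turned, with values for training in wild type -0.024 for miR-10b-5p, and for training in kinase dead -0.0100 for miR-10b-5p, -0.0031 for miR-100-5p and -0.017 for miR-125b-5p, and for training averaged over genotypes -0.017 for miR-10b-5p. Without the 7 libraries high in miR-150-5p, the sign turned, with values for training in wild type 0.037 for miR-10a-5p and 0.023 for miR-100-5p, and for training in kinase dead -0.14 for miR-10b-5p, -0.052 for miR-99b-5p, -0.13 for miR-100-5p and -0.043 for miR-125b-5p, and for training averaged over genotypes -0.039 for miR-10b-5p, and for training by genotype interaction -0.030 for miR-10a-5p, -0.20 for miR-10b-5p, -0.17 for miR-99a-5p, -0.16 for miR-100-5p and -0.13 for miR-125a-5p, and for genotype in sedentary 0.057 for miR-10b-5p, 0.036 for miR-99b-5p, 0.062 for miR-100-5p and 0.066 for miR-125b-5p, and for genotype in trained -0.054 for miR-10a-5p. With only the groups compared in the fit, the sign turned, with values for genotype in trained 0.020 for miR-99a-5p and 0.00015 for miR-100-5p.

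Leaving out each library in turn changed no call and turned the sign of 27 of 42 values at least once. Each such fit recomputed the filter and the TMM factors, so the ranges carry that as well as the library left out. For training averaged over genotypes, miR-10b-5p turned sign in 21 of 24 fits. For genotype in sedentary, the reported value of miR-125b-5p, -0.026, lay outside its own range. For training in kinase dead, that of miR-125a-5p, 0.170, lay just above its highest value of 0.169. Ranges for training in wild type were -0.11 to 0.056 for miR-100-5p, -0.098 to 0.018 for miR-10a-5p, -0.095 to 0.052 for miR-10b-5p, 0.035 to 0.20 for miR-125a-5p, 0.13 to 0.29 for miR-125b-5p, 0.069 to 0.27 for miR-99a-5p and -0.011 to 0.14 for miR-99b-5p. Ranges for training in kinase dead were -0.14 to 0.14 for miR-100-5p, 0.00038 to 0.19 for miR-10a-5p, -0.13 to 0.10 for miR-10b-5p, 0.086 to 0.17 for miR-125a-5p, -0.16 to 0.019 for miR-125b-5p, 0.011 to 0.34 for miR-99a-5p and -0.12 to 0.11 for miR-99b-5p. Ranges for training averaged over genotypes were -0.083 to 0.066 for miR-100-5p, -0.020 to 0.090 for miR-10a-5p, -0.080 to 0.056 for miR-10b-5p, 0.065 to 0.17 for miR-125a-5p, 0.020 to 0.12 for miR-125b-5p, 0.072 to 0.25 for miR-99a-5p and -0.023 to 0.11 for miR-99b-5p. Ranges for training by genotype interaction were -0.12 to 0.15 for miR-100-5p, 0.030 to 0.23 for miR-10a-5p, -0.12 to 0.092 for miR-10b-5p, -0.12 to 0.088 for miR-125a-5p, -0.36 to -0.14 for miR-125b-5p, -0.17 to 0.19 for miR-99a-5p and -0.21 to 0.021 for miR-99b-5p. Ranges for genotype in sedentary were -0.19 to 0.064 for miR-100-5p, -0.17 to -0.013 for miR-10a-5p, -0.14 to 0.051 for miR-10b-5p, -0.14 to 0.019 for miR-125a-5p, -0.022 to 0.14 for miR-125b-5p, -0.20 to 0.14 for miR-99a-5p and -0.093 to 0.098 for miR-99b-5p. Ranges for genotype in trained were -0.100 to 0.027 for miR-100-5p, -0.028 to 0.086 for miR-10a-5p, -0.099 to 0.015 for miR-10b-5p, -0.13 to -0.010 for miR-125a-5p, -0.26 to -0.15 for miR-125b-5p, -0.13 to 0.055 for miR-99a-5p and -0.18 to -0.013 for miR-99b-5p.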
